A study of Mus musculus with 39 samples.

Results

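Fatty acid oxidation in the liver was followed through 38 genes that encode the enzymes, carriers and binding proteins of the mitochondrial and peroxisomal pathways. The genes came from a fixed list of symbols, and each was read from 1 array probe, the brightest of those whose RefSeq accession belonged to the gene. All 38 were on the array, out of 17016 genes with a RefSeq probe. Of these members, 17 act in mitochondria, 11 in peroxisomes, and 10 in both or elsewhere in the cell (fatty acid activation, binding and uptake, and isomerases found in either organelle).

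The livers came from 39 singly housed male mice of the C57BL/6J strain. Per the methods they were 5 to 6 weeks old before housing and sessions began, so at sampling they were older, by more in the groups with a longer regimen and rest. Aggressor-exposed mice (AggE) spent 6 hours a day in a wire cage inside the home cage of a trained SJL aggressor, with 3 short contacts per session, while control mice (Ctrl) went through the same sessions and the same food deprivation with no aggressor. Sampling took place 24 hrs post-5-day stressor (4 Ctrl and 5 AggE), 24 hrs post-10-day stressor (4 Ctrl and 5 AggE), 1.5 wks post-5-day stressor (4 Ctrl and 5 AggE) and 4 wks post-10-day stressor (6 Ctrl and 6 AggE). The methods also name a partition test facing an aggressor 1 hour before sampling. Each liver RNA was labelled with Cy-5 and hybridised beside a common mouse reference RNA in Cy-3, without a dye swap, so every level below is a log2 ratio of liver to reference and every change is AggE minus Ctrl of that ratio. Levels of different probes are not comparable. The tissue was bulk liver, in which fewer cells of a type and less RNA per cell cannot be told apart.

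Some labels disagreed with each other. All 5 AggE mice of the 1.5 wks groups and Ctrl replicate 4 carried sample titles with the prefixes used elsewhere for the 10-day regimen, and the descriptions of the AggE mice 24 hrs post-5-day stressor name a 1-day exposure. Groups were taken from the source names, which are uniform within each group. The 39 arrays lay on 11 slides and were scanned on 2 days. At 24 hrs, no slide held both Ctrl and AggE mice, so at those times slide and exposure cannot be told apart. The median Cy-5 signal over the members was 65.0 to 328 units per Ctrl array and 112 to 706 per AggE array at 1.5 wks, where AggE replicate 2 alone exceeded 328, against 554 to 1781 in the Ctrl group at 4 wks, and the share of RefSeq probes well above background on an array ran from 19.9% to 79.6% over the study. The 6 hepatocyte markers on the array (Alb, Ttr, Apoa2, Cyp2e1, Tat, Apoc3) were well above background on all 39 arrays. Among markers of other cells, Epb42 (erythroid) and Umod (kidney) were well above background on none.

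Beta-oxidation shortens fatty acids by repeated rounds of dehydrogenation, hydration, a second oxidation and thiolytic cleavage. Mitochondria take up long-chain fatty acids through the carnitine shuttle and burn them for energy, whereas peroxisomes shorten very-long-chain, branched and dicarboxylic fatty acids with their own set of enzymes. In the liver many of these genes are known targets of the nuclear receptor PPARalpha, which fasting fatty acids activate and which binds direct repeats of AGGTCA spaced by 1 base, the DR1 element.

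The stretches before the start sites of the members were searched for that element because it is the binding sequence shared by known PPARalpha targets. The motif was AGGTCANAGGTCA on either strand, with at most 2 mismatches, in the 250 bases before the start, read from the RefSeq promoters of GRCm38.p6. Of 33 members with a promoter entry, 3 held a match (9.09%), against 1063 of 32851 promoters in all (3.24%). These were Fabp1 with TGACCTATGGCCT, Echs1 with AGGTCACGGGTCC and Etfa with TTACCTTTGCCCT. The promoters of Fabp1 and of Hadha, the member whose change at 4 wks was the largest upward one, follow, each on a line of its own. Fabp1, at chr6:71199629-71199878 on the plus strand, had the best match of all members, with 1 mismatch on the opposite strand, 67 bases before the start (in capitals), a quality reached by 159 promoters (0.484%). Hadha, at chr5:30154981-30155230 on the minus strand, had no match within these 250 bases.
Fabp1: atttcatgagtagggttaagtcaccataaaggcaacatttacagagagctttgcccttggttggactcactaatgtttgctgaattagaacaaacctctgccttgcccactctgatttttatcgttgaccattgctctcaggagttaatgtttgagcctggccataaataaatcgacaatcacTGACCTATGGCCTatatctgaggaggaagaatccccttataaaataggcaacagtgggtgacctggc
Hadha: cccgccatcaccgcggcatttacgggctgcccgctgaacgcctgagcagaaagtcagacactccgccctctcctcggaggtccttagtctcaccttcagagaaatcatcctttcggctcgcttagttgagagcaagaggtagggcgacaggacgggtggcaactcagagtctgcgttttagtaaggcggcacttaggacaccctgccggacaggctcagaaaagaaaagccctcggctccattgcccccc

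The Hadha stretch is shared with a neighbour. Hadha and Hadhb, which encode the alpha and beta subunits of the mitochondrial trifunctional protein, start 272 bases apart on opposite strands of chromosome 5, and 228 bases of their 250-base windows overlap.

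At 24 hrs post-5-day stressor, most members were lower in AggE than in Ctrl livers, but no single member passed the test. Of 38 members, 28 were lower and 10 higher, with a median change of -0.14 on the log2 scale, while 49.1% of all probes tested were lower and their median change was 0.0032. None of the members had an adjusted p of 0.05 or less (limma with Benjamini-Hochberg adjustment), beside 3.10% of the 25903 probes. At an unadjusted p of 0.05 or less there were 6 members, all lower, beside 17.3% of probes, so the members' count lay near the background. With the slide as a random block that count was 0. Mitochondrial members had a median change of -0.17 (13 of 17 lower), peroxisomal members of -0.13 (9 of 11 lower) and the remainder of -0.13 (6 of 10 lower). Higher in AggE were 5 of 6 leukocyte (median 0.07), 4 of 5 erythroid (0.04), 2 of 6 hepatocyte (-0.11) and 1 of 4 skeletal muscle markers (-0.19), none past the test. The summed signal of the muscle markers (raw Cy-5, not normalised, here and below) was 82.5 to 1595 units in Ctrl and 78.5 to 196 in AggE. The part of these markers in the members' values was not tested.

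Ehhadh, the peroxisomal bifunctional enzyme that hydrates and then oxidises the acyl chain, had the greatest difference. Its log2 ratios were 3.60, 3.01, 3.43 and 3.26 in the Ctrl mice and 2.22, 2.86, 1.64, 1.59 and 2.80 in the AggE mice. Every AggE value lay below every Ctrl value. The change was -1.10 (SE 0.36, a fold of 2.15), with an adjusted p of 0.0855. This gene passed the test under 3 of the 15 alternative ways of processing the arrays, and its change was 0.60 with the scanner's own processed signals. Array quality differed between these groups: 33.3% to 40.2% of probes were well above background on Ctrl arrays and 21.1% to 37.0% on AggE arrays, and the median Cy-5 signal over the members was 476 to 813 units in Ctrl and 236 to 726 in AggE. AggE replicates 3 and 4, with the lowest Ehhadh ratios, also had the lowest shares (23.2% and 21.1%) and the lowest signals (236 and 298 units). The part of array quality in the members' changes was not tested.

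Slc25a20, the carnitine-acylcarnitine translocase of the inner mitochondrial membrane, had log2 ratios of 1.33, 1.04, 0.92 and 0.86 in Ctrl and 0.68, 0.55, 0.04, 0.54 and 0.79 in AggE. The groups did not overlap, and the change was -0.52 (SE 0.29, adjusted p = 0.374). Aldh3a2, which oxidises fatty aldehydes, had 2.26, 2.02, 1.84 and 2.10 in Ctrl and 1.66, 1.45, 1.44, 1.65 and 1.70 in AggE. Again no AggE mouse reached the lowest Ctrl mouse, with a change of -0.48 (SE 0.20, adjusted p = 0.200). These were the 3 members without overlap between the groups, all lower in AggE, where 7.57% of all probes did not overlap.

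The remaining members with an unadjusted p of 0.05 or less were Acaa1a, the peroxisomal thiolase (-0.48, adjusted p = 0.102), Etfb, a subunit of the electron transfer flavoprotein (-0.45, adjusted p = 0.132), Pex11a, a peroxisome division factor (-0.49, adjusted p = 0.260), and Ech1, a dienoyl-CoA isomerase (-0.29, adjusted p = 0.281). Their Ctrl and AggE values overlapped. On the other side lay Crot, which transfers medium-chain products of peroxisomes to carnitine (0.48, adjusted p = 0.374), and Amacr, a racemase of branched acyl-CoA (0.28, adjusted p = 0.376). A dimmer probe of Crot (54.8 against 550 units) gave -0.13. Cpt1a, which encodes the rate-controlling carnitine palmitoyltransferase of the outer mitochondrial membrane, showed 0.04 (SE 0.16). Hacl1, a lyase of peroxisomal alpha-oxidation, was not well above background on any array of these 2 groups.

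At 24 hrs post-10-day stressor the members again leaned to the lower side. Of 38, 28 were lower and 10 higher, with a median change of -0.11, while 51.8% of all probes were lower and their median was -0.0038. No member passed the test, beside 0.0734% of probes, and no member had an unadjusted p of 0.05 or less, beside 2.83% of probes. The median changes were -0.09 for mitochondrial (12 of 17 lower), -0.11 for peroxisomal (8 of 11 lower) and -0.16 for the remaining members (8 of 10 lower). All 4 skeletal muscle markers were higher in AggE at this time (median 0.75, none past the test), their summed signal running from 171 to 1040 units in Ctrl and from 138 to 1444 in AggE arrays. Their part in the members' values was not tested.

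Ehhadh was again the lowest member. Its log2 ratios were 3.49, 3.48, 4.05 and 3.86 in Ctrl and 2.59, 2.77, 3.00, 3.78 and 3.70 in AggE. AggE replicates 1 to 3 lay below all Ctrl mice and replicates 4 and 5 lay within their range, with a change of -0.55 (SE 0.36, adjusted p = 1.00). Over 15 alternatives that change ran from -1.30 (no scaling between arrays) to -0.19 (the scanner's processed signals). Phyh, the phytanoyl-CoA hydroxylase that starts alpha-oxidation, had 6.02, 6.07, 6.21 and 6.14 in Ctrl and 5.80, 5.17, 5.86, 5.98 and 5.55 in AggE. It was the 1 member without overlap, beside 1.71% of all probes, and changed by -0.44 (SE 0.32, adjusted p = 1.00).

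Acadm, the medium-chain acyl-CoA dehydrogenase, differed most among the mitochondrial members at this time. Its values were 1.33, 1.45, 1.45 and 1.80 in Ctrl and 1.03, 1.19, 1.16, 1.37 and 1.32 in AggE. The ranges overlapped through AggE replicate 4, and the change was -0.30 (SE 0.15, adjusted p = 1.00). Aldh3a2 had 2.24, 2.11, 1.97 and 1.90 in Ctrl and 1.68, 2.08, 1.80, 1.72 and 1.65 in AggE, a change of -0.27 (SE 0.20, adjusted p = 1.00). Acaa1a, by contrast with its value after 5 days, showed -0.03 (SE 0.16). The difference between the 5-day and the 10-day change was tested directly for every probe. No member had an adjusted p of 0.05 or less in that difference, beside 0.0270% of probes, and 1 member, Etfb (-0.54, adjusted p = 0.657), had an unadjusted p of 0.05 or less, beside 6.70% of probes.

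**Figure D1:**
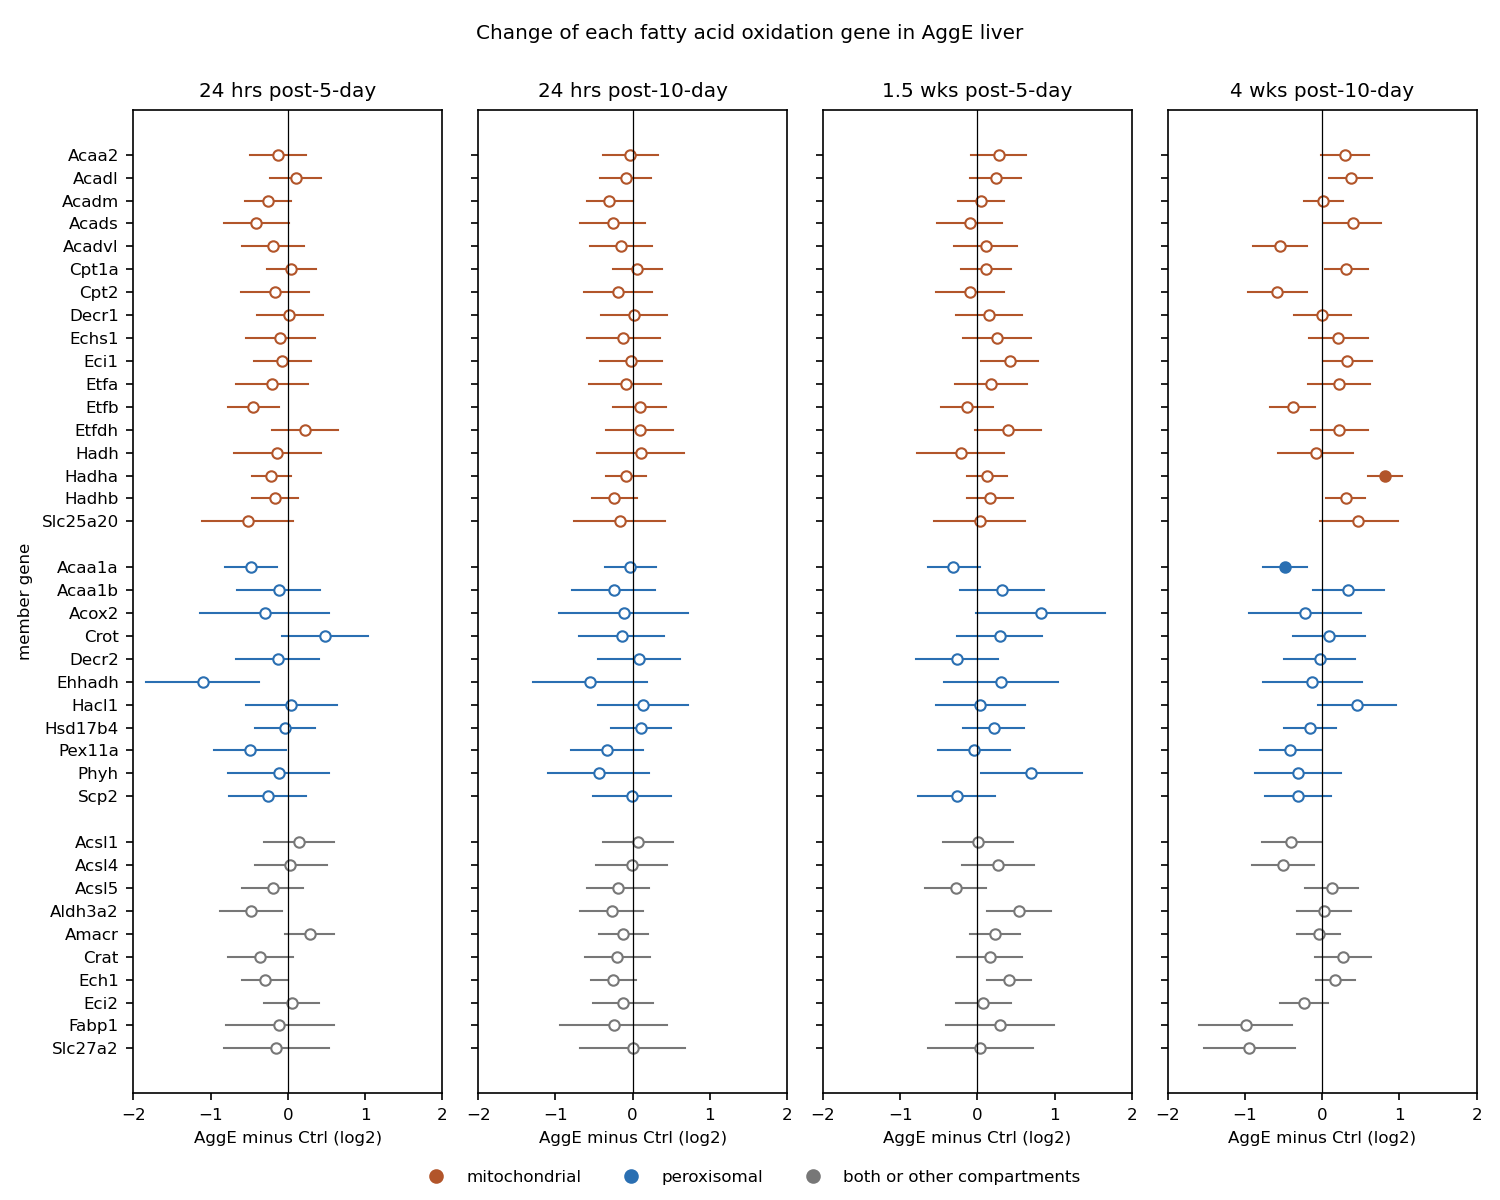
Change of each of the 38 members (AggE minus Ctrl, log2 scale, horizontal axis) at the 4 sampling times, with bars for the 95% interval, filled points for members that passed the test and colours for compartments. Members lie mostly left of 0 at both 24 hrs times (28 of 38 lower at each) and mostly right of it at 1.5 wks (29 of 38 higher), and at 4 wks Hadha stands at 0.81 and Fabp1 at -0.99.

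At 1.5 wks post-5-day stressor, most members were higher in AggE than in Ctrl livers, and none passed the test. Of 38, 29 were higher and 9 lower, with a median change of 0.16, while 52.6% of all probes were lower and their median change was -0.0054. No member and 0% of all probes had an adjusted p of 0.05 or less. With an unadjusted p of 0.05 or less there were 4 members, all higher, beside 2.43% of all probes, and 0 with the slide as a random or a fixed block. No member was without overlap between the groups, beside 0.961% of probes. The median change was 0.13 for mitochondrial (13 of 17 higher), 0.21 for peroxisomal (7 of 11 higher) and 0.20 for the remaining members (9 of 10 higher). All 5 erythroid markers were higher in AggE at this time (median 0.24, 3 of them well above background on all 39 arrays, summed signal 337 to 1562 units in Ctrl and 552 to 4852 in AggE), as were 4 of 6 hepatocyte markers (median 0.19, 6270 to 28637 and 12210 to 78898 units) and 3 of 4 skeletal muscle markers (median 0.22, 70.0 to 218 and 71.0 to 1428 units), none past the test. The part of these markers in the members' values was not tested.

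The 4 members were Phyh (0.70, SE 0.32), Aldh3a2 (0.54, SE 0.20), Eci1, the mitochondrial enoyl-CoA isomerase for unsaturated chains (0.42, SE 0.18), and Ech1 (0.41, SE 0.14), each with an adjusted p of 1.00. Aldh3a2 had log2 ratios of 0.83, 1.36, -0.15 and 1.54 in Ctrl and 1.79, 1.67, 1.21, 1.72 and 0.77 in AggE. The spread within the Ctrl group was wider than the change. Eci1 had 0.94, 0.29, 0.10 and 0.50 in Ctrl and 1.16, 0.67, 0.92, 0.83 and 0.82 in AggE, so that only Ctrl replicate 1 lay within the AggE range.

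Acox2, the peroxisomal oxidase of branched acyl-CoA and bile acid intermediates, had the greatest change at 1.5 wks. Its values were 0.51, 2.11, 0.48 and 2.68 in Ctrl and 0.87, 3.36, 2.74, 2.89 and 1.45 in AggE. Both groups spanned more than 2 log2 units, and the change was 0.82 (SE 0.41, adjusted p = 1.00). Over 16 alternatives the change of Acox2 ran from 0.09 to 1.04 and that of Aldh3a2 from 0.04 to 0.68, the lowest value of each being that with the slide as a fixed block.

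Results at 1.5 wks leaned on single mice. Without Ctrl replicate 3, the lowest Ctrl mouse for Phyh (2.90) and Aldh3a2 (-0.15), 19 members were higher and 19 lower, the median change over all members was -0.00, and no member reached a p of 0.05 without adjustment. Changes were then 0.20 for Phyh, 0.19 for Aldh3a2, 0.20 for Ech1, 0.50 for Acox2 and 0.30 for Eci1. Without Ctrl replicate 2, by contrast, 10 members had an unadjusted p of 0.05 or less.

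Ctrl replicate 4, whose title prefix is that of the 10-day regimen and whose array was scanned on the second day, had an Ehhadh log2 ratio of 3.35, while the other Ctrl mice had 1.33, 1.27 and 1.19 and the AggE mice 1.30, 2.30, 2.40, 2.74 and 1.69. Its array had 50.6% of probes well above background, against 24.5% to 31.9% in the other Ctrl mice. Without this mouse, the change of Ehhadh went from 0.30 to 0.82, that of Acox2 from 0.82 to 1.23, that of Phyh from 0.70 to 1.04 and that of Aldh3a2 from 0.54 to 0.75, and 9 members had an unadjusted p of 0.05 or less, none passing the test. The median change was then 0.15 for mitochondrial and 0.21 for peroxisomal members. Leaving out the 5 AggE mice with the same kind of title would leave no AggE group. Within the first scan day (4 AggE and 3 Ctrl mice) the medians were 0.14 and 0.41, with 28 of 38 members higher. On the 1 slide that held both groups (1 AggE and 3 Ctrl mice) they were -0.04 and 0.25. With the slide as a fixed block the mitochondrial median was -0.01.

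After the 5-day regimen, 19 members were lower at 24 hrs and higher at 1.5 wks, 9 were lower at both times and 10 were higher at both. The difference between the 24 hrs and the 1.5 wks change was tested directly. No member had an adjusted p of 0.05 or less, beside 0.0695% of probes. With an unadjusted p of 0.05 or less there were 3 members, beside 7.71% of probes: Ehhadh (-1.41, SE 0.51, adjusted p = 0.467), Aldh3a2 (-1.02, SE 0.28, adjusted p = 0.245) and Ech1 (-0.71, SE 0.20, adjusted p = 0.270).

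At 4 wks post-10-day stressor, 2 members passed the test, in opposite directions. Hadha, the alpha subunit of the trifunctional protein, which hydrates and oxidises long-chain acyl-CoA in mitochondria, rose 1.76-fold, and Acaa1a, the peroxisomal thiolase that makes the last cut of a round, fell by 0.48 on the log2 scale. The Acaa1a value is that of its brightest probe, its other 2 probes gave 0.84 and 0.56, and it passed the test in 5 of 16 alternatives. These were 2 of 38, beside 3.51% of all probes. Without adjustment 15 members reached a p of 0.05 or less, 6 of them higher and 9 lower, beside 20.6% of probes. Over all members the change had no common direction (20 higher, 18 lower, median 0.0094, all probes 0.01). By compartment, the median change was 0.22 for mitochondrial (13 of 17 higher), -0.16 for peroxisomal (8 of 11 lower) and -0.14 for the remaining members (6 of 10 lower). Related genes outside the members, described further below, did not show this split. Of 10 genes of peroxisomal oxidation and transport, 7 were higher (median 0.11), and of 14 of peroxisome biogenesis, 9 were (median 0.14). Of 7 mitochondrial and branched chain dehydrogenases, 5 were lower (median -0.07).

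Hadha was measured in every mouse of these groups well above background. Its log2 ratios were 0.34, 1.01, 1.08, 0.85, 0.70 and 0.53 in AggE (median 0.78) and 0.16, 0.29, -0.20, -0.34, -0.18 and -0.12 in Ctrl (median -0.15). The lowest AggE mouse lay above the highest Ctrl mouse. The change was 0.81 (SE 0.11, 95% interval 0.59 to 1.03, adjusted p = 2.68e-04). Without any single mouse it stayed between 0.75 and 0.90, with adjusted p from 1.05e-05 to 0.0022. It passed the test in 15 of 16 alternatives, and with the slide as a fixed block it was 0.54 (adjusted p = 0.0939). On the 1 slide with both groups (1 AggE and 3 Ctrl mice) the difference was 0.55, and between the Ctrl mice of their 2 slides it was 0.30.

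At the other times Hadha did not pass the test. It had 0.98, 1.00, 1.34 and 0.85 in Ctrl and 0.94, 0.84, 0.96, 0.62 and 0.77 in AggE 24 hrs post-5-day stressor, a change of -0.22 (SE 0.13, adjusted p = 0.393). It had 1.34, 1.01, 1.05 and 0.95 in Ctrl and 0.91, 1.19, 0.90, 1.01 and 0.98 in AggE 24 hrs post-10-day stressor, a change of -0.09 (SE 0.13, adjusted p = 1.00). Both groups lay near 1 at these times.
At 1.5 wks the Ctrl values were 0.03, -0.11, -0.17 and -0.06 and the AggE values 0.22, -0.09, 0.02, 0.16 and -0.07, a change of 0.13 (SE 0.13, adjusted p = 1.00). So the Ctrl mean was 1.04 and 1.09 at the 24 hrs times and -0.08 and -0.06 at the later times, and the AggE mean at 4 wks (0.75) lay between these levels. At 1.5 wks Hadha was well above background on only 3 of 4 Ctrl and 4 of 5 AggE arrays. Slides and age also differed between the 24 hrs and the later Ctrl groups, and the shift between them was not tested. The 10-day change at 24 hrs minus that at 4 wks was -0.90 (SE 0.17, adjusted p = 0.0169). Hadha was the 1 member with an adjusted p of 0.05 or less in that difference, beside 0.0502% of probes, and 8 members had an unadjusted p of 0.05 or less, beside 8.81% of probes. It passed the test in 8 of 15 alternatives. With Ctrl replicate 1 of the 24 hrs post-10-day groups removed its adjusted p was 0.0870, and with AggE replicate 3 removed it was 0.0503.

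Hadhb, which shares the promoter stretch and the protein complex with Hadha, had log2 ratios of 1.14, 0.83, 0.86, 0.67, 0.82 and 0.80 in AggE and 0.42, 0.57, 0.46, 0.68, 0.48 and 0.67 in Ctrl at 4 wks. The ranges touched through AggE replicate 4, and the change was 0.31 (SE 0.13, adjusted p = 0.152). Acaa2, the mitochondrial thiolase, had 3.81, 3.71, 3.79, 3.71, 3.89 and 3.64 in AggE and 3.43, 3.51, 3.39, 3.43, 3.42 and 3.55 in Ctrl. Its groups did not overlap either, with a change of 0.30 (SE 0.15, adjusted p = 0.252). Hadha and Acaa2 were the 2 members without overlap, both higher in AggE, beside 1.55% of all probes.

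**Figure D2:**
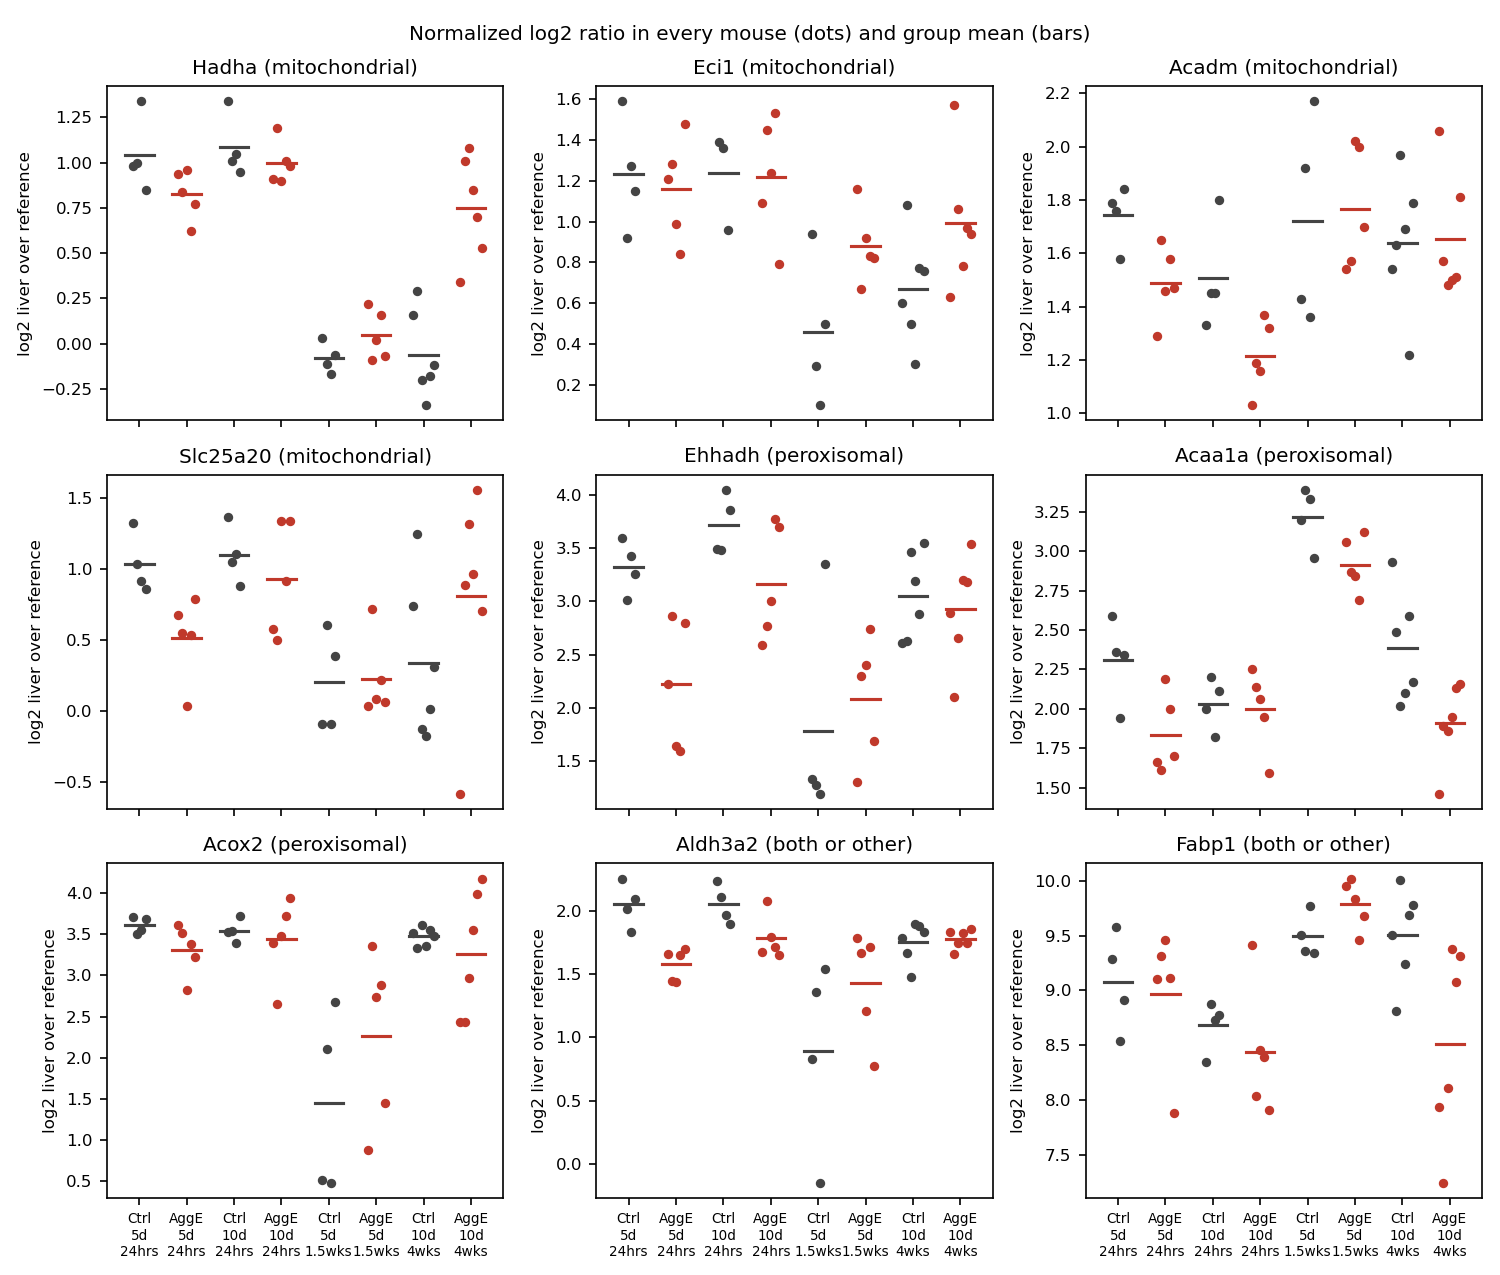
Log2 ratio of liver to reference (vertical axis) in each mouse for the named members, by group, with points for mice and bars for group means. Hadha separates AggE (0.34 to 1.08) from Ctrl (-0.34 to 0.29) at 4 wks, and Ehhadh separates AggE (1.59 to 2.86) from Ctrl (3.01 to 3.60) 24 hrs post-5-day stressor.

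Acaa1a had log2 ratios of 1.46, 1.89, 1.86, 1.95, 2.13 and 2.16 in AggE and 2.93, 2.49, 2.02, 2.10, 2.59 and 2.17 in Ctrl at 4 wks. The ranges overlapped, and the change was -0.48 (SE 0.14, adjusted p = 0.0496). The 3 probes of this gene disagreed: the brightest, with a mean signal of 5078 units, gave -0.48, whereas the others gave 0.84 (signal 1367, adjusted p = 0.136) and 0.56 (signal 436, adjusted p = 0.238), and the mean taken over the probes in each mouse gave 0.36. In AggE replicate 6 that mean was over 2 probes, because the dimmest had no value there. Acaa1a and Acaa1b are near copies of each other, and probes for either gene may take up transcript of the other. Acaa1b itself showed 0.34 (SE 0.23, adjusted p = 0.414).

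Fabp1, the liver fatty acid binding protein, had the greatest downward difference without passing the test. It had 7.94, 7.25, 8.11, 9.38, 9.08 and 9.31 in AggE and 9.51, 8.81, 10.01, 9.24, 9.69 and 9.78 in Ctrl. AggE replicates 1 to 3 lay below all Ctrl mice and replicates 4 to 6 within their range, for a change of -0.99 (SE 0.29, adjusted p = 0.0523). Over 16 alternatives the change ran from -1.63 to -0.05, with adjusted p from 0.0291 to 0.991, and it passed the test in 4.
Slc27a2, which imports and activates very-long-chain fatty acids, divided the AggE mice in the same way, with 4.35, 4.06 and 5.14 in replicates 1 to 3 and 6.01, 6.48 and 6.18 in replicates 4 to 6. Its Ctrl mice ran from 6.01 to 6.63, and its change was -0.94 (SE 0.29, adjusted p = 0.0603).

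Other members near the threshold were Cpt2, the inner-membrane carnitine palmitoyltransferase (-0.58, adjusted p = 0.0684), and Acadvl, the very-long-chain acyl-CoA dehydrogenase (-0.54, adjusted p = 0.0653). Cpt2 had 2.84, 2.44, 2.35, 2.56, 2.52 and 2.51 in AggE and 2.50, 2.24, 3.54, 3.45, 3.65 and 3.34 in Ctrl. Ctrl replicates 1 and 2 thus lay at or under the AggE level, apart from the other Ctrl mice. Slc25a20, with 0.74, 1.25, -0.12, -0.17, 0.02 and 0.31 in Ctrl and -0.58, 0.89, 1.32, 0.97, 1.56 and 0.71 in AggE, showed the same pair of Ctrl mice among the AggE values and AggE replicate 1 below all Ctrl mice. Without AggE replicate 1, 8 members passed the test at 4 wks, and without Ctrl replicate 2, 7 did.

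Among the other acyl-CoA dehydrogenases, Acadl (long-chain) and Acads (short-chain) had unadjusted p below 0.05 and changes of 0.37 (SE 0.14, adjusted p = 0.120) and 0.40 (SE 0.18, adjusted p = 0.202), and Acadm showed 0.01 (SE 0.13). Cpt1a (0.31, adjusted p = 0.183) and Eci1 (0.32, adjusted p = 0.235) were also higher. Further members that were lower with an unadjusted p below 0.05 were Acsl4 and Acsl1, which activate fatty acids to acyl-CoA (-0.51, adjusted p = 0.132, and -0.40, adjusted p = 0.232), Etfb (-0.38, adjusted p = 0.120) and Pex11a (-0.41, adjusted p = 0.235). The peroxisomal members Hsd17b4, a multifunctional enzyme (-0.16), Scp2, a thiolase and sterol carrier (-0.31), Phyh (-0.31) and Decr2, a reductase of unsaturated chains (-0.03), all had adjusted p above 0.4.

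**Figure D3:**
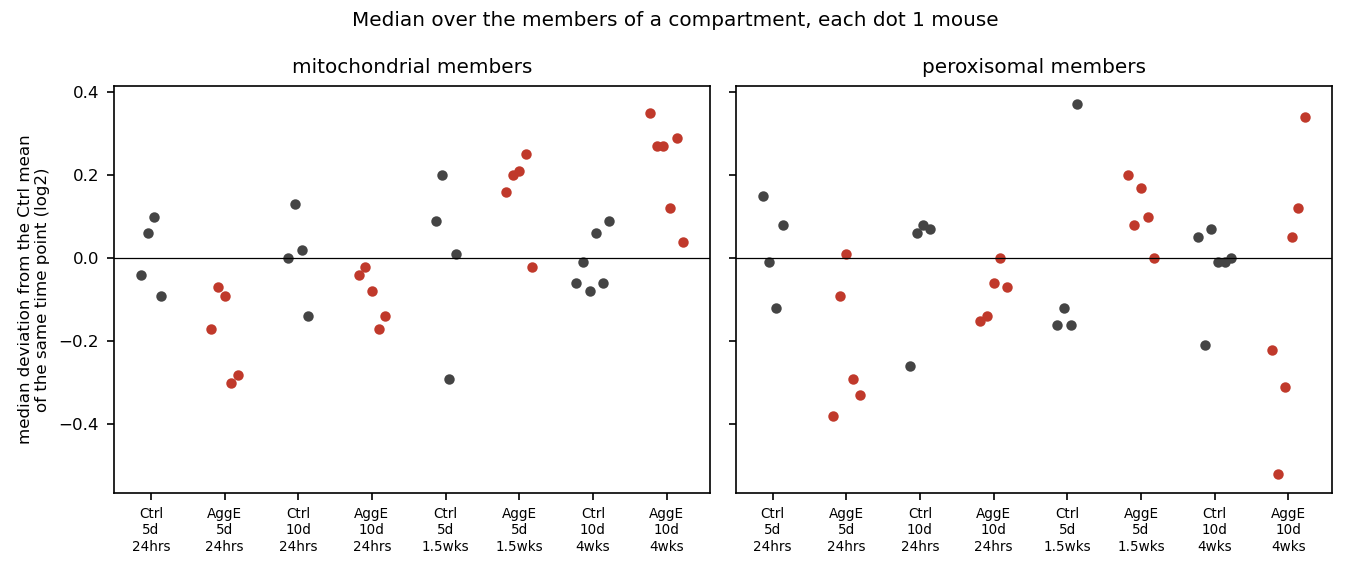
Median deviation from the Ctrl mean (log2 scale, vertical axis) over the mitochondrial and over the peroxisomal members in each mouse, by group, points being mice. At 4 wks the mitochondrial medians of AggE mice ran from 0.04 to 0.35 and those of Ctrl mice from -0.08 to 0.09, while the peroxisomal medians of AggE mice ran from -0.52 to 0.34.

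The peroxisomal medians at 4 wks separated the AggE mice among themselves. Taken per mouse as the median deviation from the Ctrl mean, they were -0.22, -0.52, -0.31, 0.05, 0.12 and 0.34, against 0.05, -0.21, 0.07, -0.01, -0.01 and 0.00 in Ctrl. The mitochondrial medians were 0.35, 0.27, 0.27, 0.12, 0.29 and 0.04 in AggE and -0.06, -0.01, -0.08, 0.06, -0.06 and 0.09 in Ctrl. AggE replicate 6 was thus the highest AggE mouse on the peroxisomal side and the lowest on the mitochondrial side. At 24 hrs post-5-day stressor the mitochondrial medians were -0.17, -0.07, -0.09, -0.30 and -0.28 and the peroxisomal ones -0.38, -0.09, 0.01, -0.29 and -0.33, with the same mice (AggE replicates 1, 4 and 5) lowest in both. Neither compartment was tested against the other.

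Signal strength moved with the changes at 4 wks. Across the 38 members, the change and the mean Cy-5 signal of the probe had a Spearman correlation of -0.68, with all points taken from the same arrays. It was -0.00 and 0.04 at the 24 hrs times and -0.18 at 1.5 wks, and over all probes at 4 wks it was -0.08. The 19 brighter members had a median change of -0.31 (4 higher) and the 19 dimmer ones of 0.22 (16 higher). With the slide as a fixed block the correlation was -0.38, and on the 1 slide with both groups it was -0.39. The median of the brighter members became -0.09 with Cy-5 alone, -0.14 with the slide as a fixed or random block and -0.54 with no scaling between arrays. Mitochondrial members were dimmer than peroxisomal ones, with median probe signals of 810 and 1257 units, and within the mitochondrial members the 7 brighter ones had a median of -0.08 and the 10 dimmer ones of 0.31. Hadha, at 112 units, and Acaa1a, at 5078 units, lay on opposite sides. Probes of any gene above 1000 units also leaned down at 4 wks (757 probes, median -0.26, 27.3% higher), close to the 18 members in that range (median -0.31, 3 higher). From 200 to 1000 units the 1978 probes of any gene had a median of -0.11 (37.2% higher) and the 13 members of 0.17 (10 higher). From 50 to 200 units the 5424 probes had a median of -0.02 (47.8% higher) and the 6 members of 0.43 (6 higher). Median Cy-5 signal over the members was 1196 to 2503 units on AggE arrays and 554 to 1781 on Ctrl arrays at 4 wks, and all 6 hepatocyte markers were lower in AggE (median -0.26, none with an adjusted p of 0.05 or less). Of other markers at 4 wks, all 4 biliary ones were lower (median -0.19, summed signal 106 to 388 units in Ctrl and 141 to 221 in AggE), among which Epcam fell by 0.67 (adjusted p = 0.0238). All 4 skeletal muscle markers were higher (median 0.34, none past the test, 85.0 to 810 units in Ctrl and 128 to 1354 in AggE), as were 4 of 5 adipose markers (median 0.05, 106 to 312 and 120 to 215 units), among which Lep passed the test (0.31, adjusted p = 0.0341), but 0 of these 5 were well above background on all arrays of any group. Erythroid markers had a summed signal of 1448 to 6191 units in Ctrl and 6461 to 16923 in AggE arrays, so that these sums did not overlap. The sums are raw Cy-5 signals without normalisation, and those of the hepatocyte markers also ran higher in AggE (61910 to 194926 units in Ctrl, 143926 to 278403 in AggE). After normalisation 4 of 5 erythroid markers were higher (median 0.06, none past the test), with Hba-a1 at 0.93 (adjusted p = 0.151) and Hbb-bt at 0.10 (adjusted p = 0.928). Of the leukocyte markers 4 of 6 were higher (median 0.10, none past the test, 406 to 1866 units in Ctrl and 740 to 1648 in AggE), with Ptprc at -0.42 (adjusted p = 0.0880). For pancreas 3 of 5 were higher (median 0.09, 170 to 446 and 384 to 577 units) and for kidney 1 of 3 (median -0.02, 81.0 to 191 and 122 to 202 units), none past the test. The part of signal strength and of these markers in the members' changes was not tested.

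**Figure D4:**
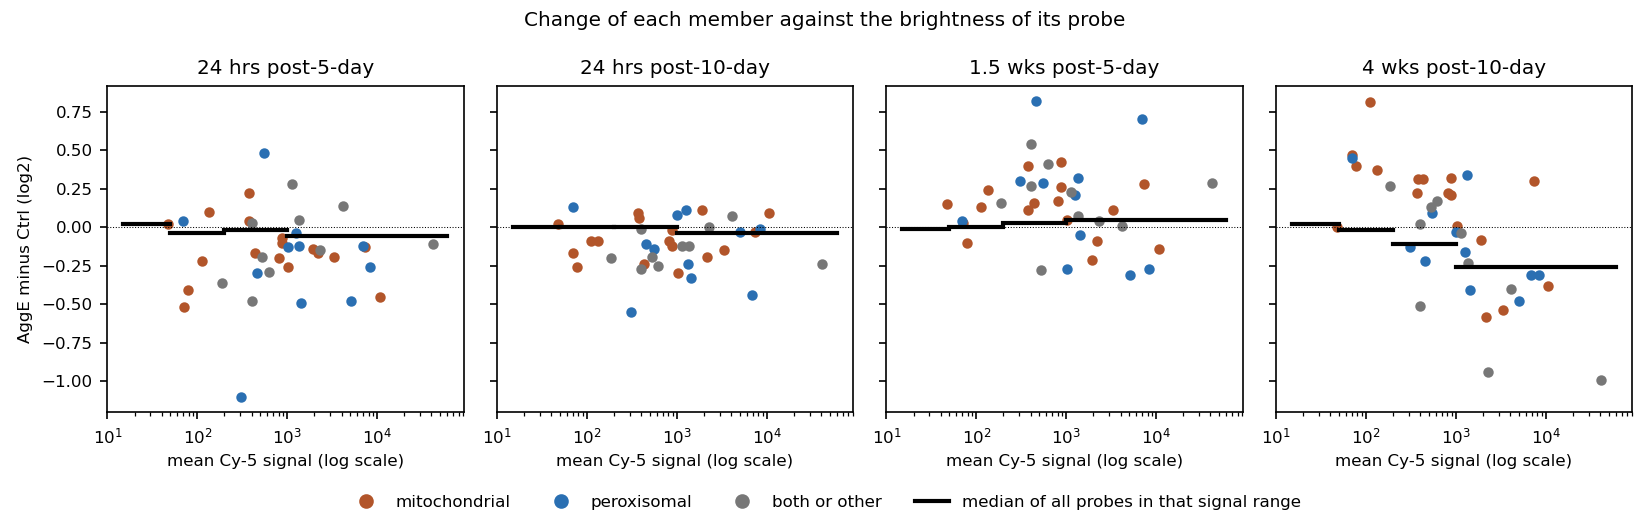
Change at each sampling time (AggE minus Ctrl, log2 scale, vertical axis) against the mean Cy-5 signal of the probe (log axis) for the 38 members, coloured by compartment, with black lines for the median of all probes in a signal range. At 4 wks the points slope downward (Spearman -0.68), from a median of 0.22 in the 19 dimmer to -0.31 in the 19 brighter members.

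Other genes of the pathway were described from a list of 64 that serve peroxisome formation, carnitine and acyl-CoA handling, malonyl-CoA, related dehydrogenases, regulation and PPARalpha output, 63 of them on the array. At 24 hrs post-5-day stressor 6 of 63 passed the test, beside 3.10% of all probes, and at 4 wks 3, beside 3.51%. At 24 hrs post-10-day stressor none passed (3 without adjustment, beside 2.83% of probes), nor at 1.5 wks (2 without adjustment, beside 2.43%). The counts at 1.5 and 4 wks lay near the background. The 10 further PPARalpha targets held 3 of the 6 calls at 24 hrs post-5-day stressor and 2 of the 3 at 4 wks. After 5 days, 9 of the 10 were lower (median -0.53), and 3 passed the test.

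Cyp4a10, a microsomal fatty acid omega-hydroxylase, ran from 3.44 to 4.39 in Ctrl and from 1.06 to 3.22 in AggE, and fell by 1.79 on the log2 scale (SE 0.37, adjusted p = 0.00600). Its relative Cyp4a14 fell by 3.17 (SE 0.77, adjusted p = 0.0191), from 6.78 to 7.51 in Ctrl to 2.14 to 5.81 in AggE. Acot1, which cleaves acyl-CoA in the cytosol, fell by 1.15 (SE 0.24, adjusted p = 0.00708).
None of these 3 genes overlapped between the groups. Over 15 alternatives Cyp4a10 passed in 9, with changes from -2.58 to 0.50, Cyp4a14 in 9 (-4.60 to -1.14) and Acot1 in 11 (-2.50 to -1.02). Cyp4a10 and Cyp4a14 belong to a family of close copies, so their probes may share transcript, as may that of Acot1 with other acyl-CoA thioesterases. Further calls after 5 days included Abcd2 and Acsl6, which were well above background on 0 of 9 and 1 of 9 of these arrays.

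After 10 days, Cyp4a14 (-1.89, adjusted p = 1.00) and Acot1 (-0.95, adjusted p = 0.506) again did not overlap between the groups, without passing the test. Over 15 alternatives Cyp4a14 ran from -2.44 to 0.01, the last with the series table, and Acot1 from -1.42 to -0.89. At 1.5 wks Cyp4a14 was higher by 1.97, the highest change of all probes tested, without passing the test. Over 16 alternatives that change ran from 0.37 to 2.26 and passed in 0. Its 24 hrs post-5-day change minus that at 1.5 wks was -5.14, also without passing the test, though it passed in 7 of 15 alternatives. At 4 wks Cyp4a10 rose by 1.68 (SE 0.32, adjusted p = 0.00750), from 0.25 to 2.02 in Ctrl to 2.08 to 3.65 in AggE, and Acot1 rose by 0.86 (SE 0.21, adjusted p = 0.0239). Of the 10 PPARalpha targets, 6 were then higher and 4 lower (median 0.11). Cyp4a14 showed -0.29 (adjusted p = 0.867), with a mean of 4.25 in Ctrl and 3.97 in AggE, and passed the test in 0 of 16 alternatives. Acad11, an acyl-CoA dehydrogenase of long and very long chains, rose by 1.18 (SE 0.23, adjusted p = 0.00806), from -0.01 to 0.73 in Ctrl to 1.22 to 1.76 in AggE. Over 16 alternatives Cyp4a10 and Acot1 passed in 8 each and Acad11 in 12. Ppara itself showed -0.25 and 0.08 at the 24 hrs times, 0.17 at 1.5 wks and -0.35 at 4 wks, and never passed the test. The Ctrl mean of Cyp4a10 was 3.89 and 3.76 at the 24 hrs times and 0.37 and 1.09 at 1.5 and 4 wks, a shift between control groups wider than any AggE change of the gene.

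The pooled SD of the members within groups had a median of 0.32 on the log2 scale, from 0.19 to 0.64. Over all probes tested it was 0.16, but 17744 of those 25903 probes had a mean signal under 50 units, against 1 of the 38 members, and spread was not compared at like signal.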

How the data were processed

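Gene expression was measured in 39 mouse livers on 2-colour Agilent mouse arrays with 4 arrays to a slide. Per the methods and labels, the authors labelled liver RNA with Cy-5 and Stratagene Universal Mouse Reference RNA with Cy-3 and extracted features with Agilent Feature Extraction (11.5.1.1 in the submitters' processing notes, an earlier version in the methods). The deposited scanner files hold spot intensity, from which every main value was computed. The deposited series table holds log10 ratios of liver to reference, which matched the scanner files' own log ratios in scale and direction and were scaled within arrays only, and the deposited processed signals are background-subtracted and dye-normalised intensity. Both served only as alternatives.

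Median intensities were background-corrected (normexp, offset 50), loess-normalised within and quantile-normalised between arrays, turned to log2 ratios and averaged per probe, leaving out control and outlier spots (3 member values missing). RefSeq probes (25903) were fitted with limma 3.58.1 in R 4.3.3 with a mean per group, and p-values were adjusted by Benjamini-Hochberg over all of them. Levels are liver over reference. The fit was tested on simulated data. Mice were separate animals. Spread between arrays limits the precision.

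The members and lists were chosen with earlier results of these data known. Values per mouse were given for members that passed the test and for the greatest change in each compartment at each time. Hadhb, Phyh, Acaa2, Slc27a2, Cpt2 and the per-gene ranges beyond these were added after their values were seen. Alternatives covered background, scaling, probe choice, slide, scan day (chosen after seeing the data), array weights and single mice. Replicate numbers mark different animals. Some genes of the lists are not reported here by name.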

Additional observations from a re-analysis of the deposited data

Results flagged for a closer look

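Single mice stood apart in 6 of 87 groups of values examined, where chance gives about 1 in 20. Among the Ctrl mice at 1.5 wks post-5-day stressor, replicate 4 had an Ehhadh log2 ratio of 3.35, while the other 3 had 1.19 to 1.33, and its median deviation over the peroxisomal members was 0.37, against -0.16 to -0.12. Among AggE mice 24 hrs post-5-day stressor, replicate 5 had a Fabp1 log2 ratio of 7.88, against 9.10 to 9.46 in the others. Slc25a20 in AggE replicate 2 at 1.5 wks was 0.72, against 0.04 to 0.22, and the gene was well above background on only 3 of these 5 arrays. Replicate 2 was scanned on the second day, and its median Cy-5 signal over the members was 706 units, against 112 to 207 in the others. The median deviation over the peroxisomal members was -0.26 in Ctrl replicate 1 at 24 hrs post-10-day stressor, against 0.06 to 0.08, and -0.21 in Ctrl replicate 2 at 4 wks, against -0.01 to 0.07. After the 10-day stressor, the Hadha change at 24 hrs minus that at 4 wks was -0.90 (limma, adjusted p = 0.0169).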

How the results depend on the processing

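Members that passed the test at 24 hrs post-5-day stressor numbered 1 in place of 0 with no background subtraction, an offset of 16, array weights or Cy-5 alone. At 4 wks they numbered 1 in place of 2 with no background subtraction, processed signals, an offset of 16, Cy-5 alone, all probes, the mean over probes, the slide as a random block or the replicate block, 5 with no scaling, Aquantile or scan day as a term, 6 with only probes well above background, 9 with array weights, 3 with the series table (Hadha, Acadvl, Cpt2) and 0 with the slide as a fixed block, while fitting only the groups compared gave 2 (Hadha and Acaa2, not Acaa1a). The difference of the 10-day changes had 0 in place of 1 with processed signals, no scaling, Aquantile, Cy-5 alone, the series table, only the groups compared or the slide as a random block. Median changes of mitochondrial members moved to -0.01 at 1.5 wks with the slide as a fixed block, to 0.35 at 4 wks with no background subtraction, to -0.32 (no scaling, Aquantile) and -0.28 (series table) 24 hrs post-5-day stressor and to -0.23 (no scaling, Aquantile) 24 hrs post-10-day stressor. Those of peroxisomal members moved to -0.56 (no scaling, Aquantile) and -0.33 (series table) after 5 days, to -0.33 (no scaling, Aquantile) after 10 days, to -0.00 at 1.5 wks (slide as a random block), and to -0.54 (no scaling, Aquantile) and 0.15 (Cy-5 alone) at 4 wks. Ehhadh turned to 0.60 24 hrs post-5-day stressor with processed signals, and Acaa1a to 0.36 at 4 wks with the mean over probes. The causes were not tested. 

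Without single mice, members that passed the test at 4 wks numbered 1 to 8, in the difference of the 10-day changes 0 to 1, and 0 to 0 at the other times and in the other differences. The medians ran from -0.24 to -0.12, -0.14 to -0.01, 0.01 to 0.18 and 0.20 to 0.32 (mitochondrial) and from -0.26 to -0.11, -0.18 to -0.05, -0.01 to 0.25 and -0.25 to -0.05 (peroxisomal) for 5 days and 10 days at 24 hrs, 1.5 wks and 4 wks. The numbers of replicates do not pair the mice: deviations of same-numbered mice correlated from -0.48 to 0.54, and with the replicate block 1 member passed at 4 wks. The slide as a fixed block could not be fitted at the 24 hrs times. Dim probes set a limit: Hacl1 was above background on 22 of 39 arrays, Decr1 on 26 and Slc25a20 on 33.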
